A study of Mus musculus with 20 samples.

Results

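Fat cells make new fatty acids from glucose by de novo lipogenesis, and 10 genes of this pathway and its control were followed in a subcutaneous depot, inguinal white fat (iWAT), of 20 female mice. The genes were taken by name as known parts of the pathway, with earlier results of these data known, and all 10 were found among the 36611 genes that the transcript table covers. They are 6 enzymes that make a saturated fatty acid and lengthen it (*Acly*, *Acaca*, *Acacb*, *Fasn*, *Elovl6* and *Me1*), both desaturases that are common in fat (*Scd1* and *Scd2*), and the transcription factors *Srebf1* and *Mlxipl*, with 52 matched transcripts between them. For each gene the relative abundance (TPM, a relative transcript level which corrects for length and scales every library to the same total) and an estimated read count were summed over its transcripts.

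The mice formed 4 groups, each with 5 animals. Both *Ad-Tmem120a*-/- mice and their control littermates were kept on low fat diet (LFD, D12328, 10.5% fat) or high fat diet (HFD, D12331, 58% fat) for 15 weeks, were 6 months old, of the strain C57BL/6, and were housed in groups. Controls are labelled wild type, and the methods describe them as littermates with *loxP* sites at *Tmem120a* but without Cre. In the knockout, exons 2 and 3 of *Tmem120a* were removed by Cre driven from the adiponectin promoter, which is active in adipocytes, so other cells of the tissue keep the gene. The floxed allele was made in C57BL/6N cells and the Cre line is C57BL/6J. According to the methods the mice were fasted before the tissue was taken. The labels give no batch, and nothing says whether cage mates shared a group.

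The libraries held between 54605101 and 92387737 estimated counts, and the members' counts ran from 1014 for *Mlxipl* in 1 library to 8659537 for *Scd1*, so counting error was small beside the spread between mice. On LFD *Tmem120a* averaged 85.4 ± 28.4 TPM (SD, n = 5) with the gene intact and 41.5 ± 21.9 TPM after deletion, and on HFD 119 ± 44.5 TPM and 51.6 ± 26.7 TPM. Over both diets it fell by 1.64 ± 0.24 (SE) on the log2 scale in the knockout, with an adjusted p of 0.00452 (edgeR quasi-likelihood test, Benjamini-Hochberg), although the genotypes overlapped on each diet and the gene was not called on LFD (adjusted p = 0.929) or HFD (adjusted p = 0.173) alone. White adipocyte markers were abundant in all libraries, with the sum of 10 markers between 15126 and 31802 TPM. In whole tissue, fewer cells of a type and less RNA per cell cannot be told apart.

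In this pathway ATP citrate lyase (*Acly*) splits citrate from the mitochondria into acetyl-CoA, and acetyl-CoA carboxylase turns that into malonyl-CoA, which fatty acid synthase (*Fasn*) assembles into palmitate with NADPH that malic enzyme (*Me1*) helps to supply. *Elovl6* lengthens palmitate to stearate, and the stearoyl-CoA desaturases put in the double bond that gives oleate and palmitoleate. SREBP-1c, made from *Srebf1*, answers to insulin, and ChREBP, made from *Mlxipl*, answers to glucose. Diets rich in fat and poor in carbohydrate are known to lower the pathway in liver and fat.

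The promoters of the genes that the results turn on are shown first, because members that moved together and both regulators can be compared there. RefSeq promoter sequences (assembly GRCm38.p6) were given for 8 of the 10 members, 12 starts in all, and not for *Scd1* and *Scd2*. Each of the 12 was found at exactly 1 place in NCBIM37, the build of the data, and the 250 bases before the start are printed 5′ to 3′ on the strand of the gene. Capitals mark matches on either strand to CCAAT (the box of NF-Y), GGGCGG (the box of Sp1), CACGTG (an E-box, the kind of site that ChREBP binds in pairs) and CACCCCAC (the core of the sterol regulatory element of the LDL receptor promoter, bound by SREBP). None of these motifs holds another.
*Fasn*, chr11:120685862-120686111, minus strand: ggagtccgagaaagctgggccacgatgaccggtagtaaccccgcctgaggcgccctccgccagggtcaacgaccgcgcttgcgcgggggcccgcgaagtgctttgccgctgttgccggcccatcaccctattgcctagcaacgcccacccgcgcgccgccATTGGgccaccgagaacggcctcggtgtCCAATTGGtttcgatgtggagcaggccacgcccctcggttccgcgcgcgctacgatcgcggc
*Acly*, chr11:100389315-100389564, minus strand: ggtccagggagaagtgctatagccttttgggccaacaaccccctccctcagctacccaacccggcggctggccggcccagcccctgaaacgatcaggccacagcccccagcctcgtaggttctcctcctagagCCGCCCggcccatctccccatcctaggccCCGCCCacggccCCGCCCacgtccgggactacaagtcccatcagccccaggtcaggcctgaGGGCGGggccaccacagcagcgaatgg
*Elovl6*, chr3:129235054-129235303, plus strand: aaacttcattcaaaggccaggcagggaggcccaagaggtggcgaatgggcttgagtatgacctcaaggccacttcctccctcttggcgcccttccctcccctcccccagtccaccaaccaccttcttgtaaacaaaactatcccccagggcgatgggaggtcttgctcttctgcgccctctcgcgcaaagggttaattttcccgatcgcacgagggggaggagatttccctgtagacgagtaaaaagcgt
*Mlxipl*, upstream start, chr5:135565510-135565759, plus strand: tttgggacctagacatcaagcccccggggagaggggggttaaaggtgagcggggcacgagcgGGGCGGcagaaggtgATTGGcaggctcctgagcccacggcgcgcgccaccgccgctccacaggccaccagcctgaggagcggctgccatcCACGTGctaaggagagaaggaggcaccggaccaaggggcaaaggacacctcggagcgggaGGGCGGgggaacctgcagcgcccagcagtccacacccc
*Mlxipl*, downstream start, chr5:135582511-135582760, plus strand: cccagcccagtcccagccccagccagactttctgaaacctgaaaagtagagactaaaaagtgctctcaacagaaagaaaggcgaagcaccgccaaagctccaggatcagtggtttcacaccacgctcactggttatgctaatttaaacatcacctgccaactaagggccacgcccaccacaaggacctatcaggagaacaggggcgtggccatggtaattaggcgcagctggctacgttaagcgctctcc
*Srebf1*, start of the 1c form, chr11:60023974-60024223, minus strand: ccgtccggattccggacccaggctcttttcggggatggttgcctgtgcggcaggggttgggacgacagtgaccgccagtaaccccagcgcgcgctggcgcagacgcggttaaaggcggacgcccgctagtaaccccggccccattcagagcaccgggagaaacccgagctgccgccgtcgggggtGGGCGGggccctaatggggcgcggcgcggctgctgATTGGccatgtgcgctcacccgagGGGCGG

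In *Fasn* the 3 CCAAT matches lay at −90, −62 and −59 from the start, and the last 2 of them overlapped as an inverted pair. *Acly* had 4 GGGCGG matches and *Elovl6* had no match to any of the 4 motifs. The upstream *Mlxipl* start, at the exon that the short form ChREBP-beta uses, had the single E-box found among the 12 windows, at −98, whereas the downstream start, that of ChREBP-alpha, had no match. The 1c start of *Srebf1* had 2 GGGCGG matches and 1 CCAAT match at −30. CCAAT was present in 6 of the 12 windows against 33.8% of 32851 promoters of the same length, GGGCGG in 5 against 32.7%, CACGTG in 1 against 6.02%, and CACCCCAC in 0 against 2.58%. A match is only a run of letters, and no binding was measured here.

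The level of the members spanned more than 3 powers of 10. Averaged over the 20 libraries, *Scd1* stood at 19160 TPM and was the gene in place 9 of the whole tissue, followed by *Fasn* at 566 TPM, *Me1* at 398 TPM, *Acaca* at 252 TPM, *Acly* at 186 TPM, *Scd2* at 177 TPM, *Elovl6* at 142 TPM, *Srebf1* at 44.6 TPM, *Mlxipl* at 9.92 TPM and *Acacb* at 8.68 TPM. Neighbours in this order between *Acaca* and *Elovl6*, and the pair *Mlxipl* and *Acacb*, lay closer together than their spread over mice. By summed TPM, *Acacb*, the carboxylase at the mitochondrial outer membrane, stood at between 3.09% and 3.81% of the cytosolic *Acaca* in the 4 groups (group means). This ratio depends on the transcripts summed. Of the *Acaca* TPM, 39.9% was on *Acaca-004*, of 686 bases, whereas 82.8% of the *Acacb* TPM was on *Acacb-001*, of 8788 bases. By estimated counts the gap was smaller. In control mice on LFD *Acacb* had 2992 to 24220 counts and *Acaca* 71254 to 241484. Together the 10 genes made up 1.70% ± 0.18 of all transcripts in control mice on LFD and 2.59% ± 0.41 on HFD (SD, n = 5), and *Scd1* took 86.9% and 95.8% of that sum.

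The question put to diet was whether the tissue's lipogenic programme differs between LFD and HFD in each genotype. In control mice 8 of the 10 members passed the test, 7 lower on HFD (over all 15311 genes tested, 4.9% were called lower) and 1 higher (4.42% over all genes). In knockout mice the same split was found, 7 lower (4.85% of 15705 genes) and 1 higher (4.55%). The same 8 genes were called in both. *Acly*, *Acaca*, *Acacb*, *Fasn*, *Elovl6*, *Me1* and *Mlxipl* fell and *Scd2* rose. The median log2 fold change of the 10 members was −1.61 in control and −1.48 in knockout mice, against −0.04 and 0.00 over all genes tested. Values of the 2 groups did not overlap for 7 members in control mice (9.78% of all genes) and for 7 in knockout mice (7.95%).

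**Figure D1:**
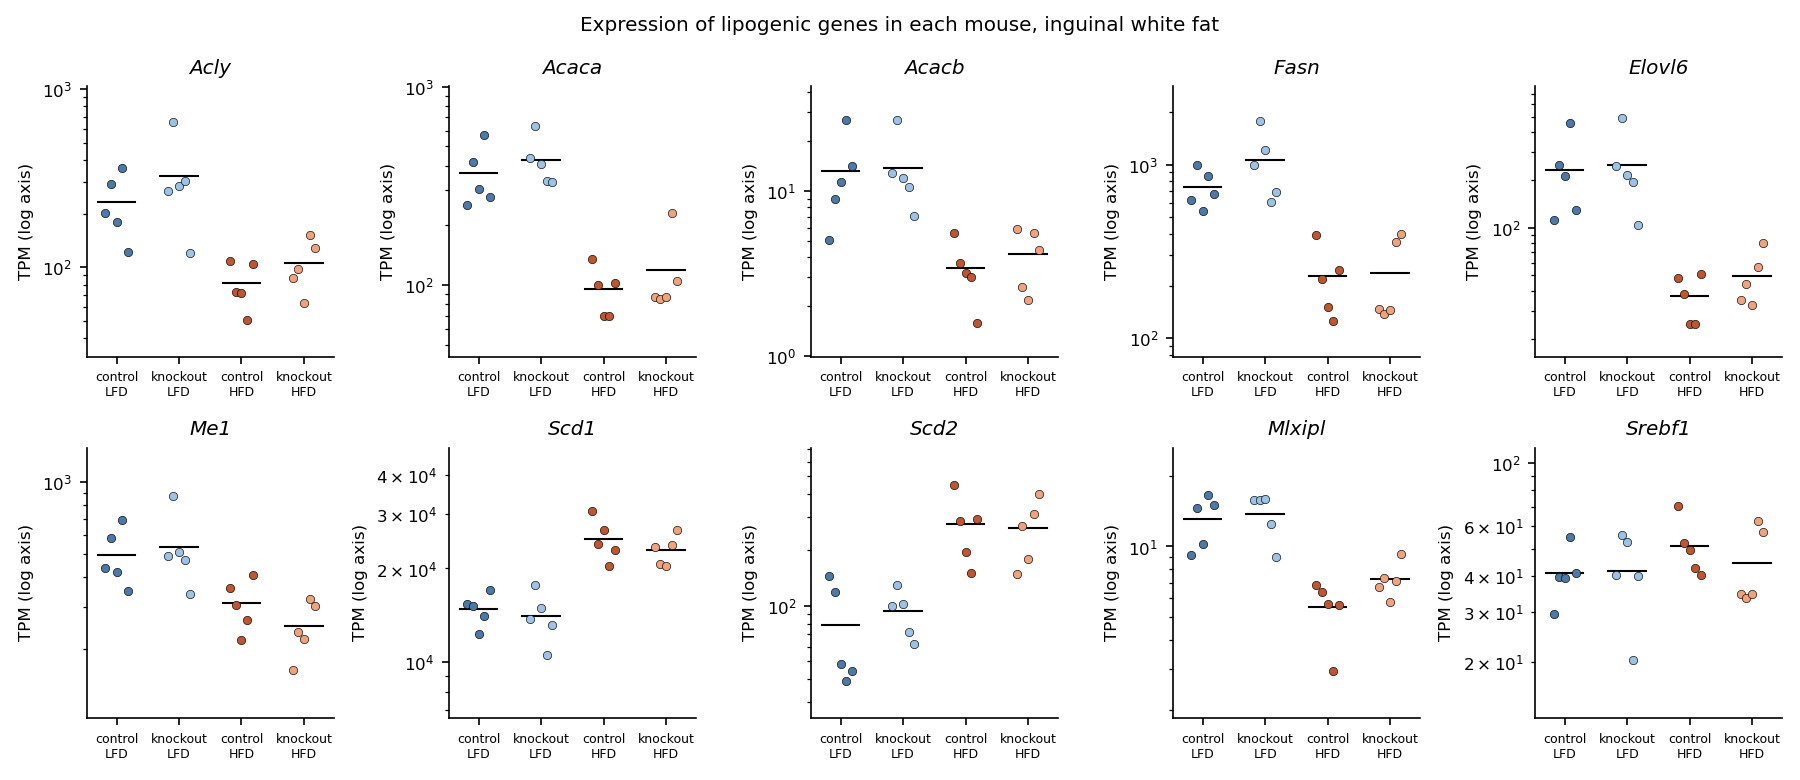
Relative abundance (TPM, log axis) of the 10 lipogenic genes in each mouse, by group, with 1 dot for each mouse and a bar at the mean of 5 mice. For *Acaca*, *Fasn* and *Elovl6* every mouse on HFD lies below every mouse on LFD of its genotype, for *Scd1* and *Scd2* every mouse on HFD lies above, and *Srebf1* overlaps.

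Gene positions are given in NCBIM37, over all annotated transcripts. *Acly* (ENSMUSG00000020917, chr11:100337667-100389314, minus strand), the gate from citrate to acetyl-CoA, stood between 121 and 359 TPM in control mice on LFD and between 50.3 and 109 TPM on HFD. The groups did not overlap, and the gene fell by 1.92 ± 0.31 on the log2 scale (SE, adjusted p = 0.00622, edgeR). In knockout mice it ran from 121 to 650.2 TPM on LFD and from 63.4 to 152 TPM on HFD. There 1 mouse on LFD lay within the range of the HFD group, and the gene fell by 1.86 ± 0.36 (adjusted p = 0.0121, edgeR). These fits used counts without a correction for transcript length. With offsets for that length, the log2 fold change was smaller, −1.68 ± 0.30 in control and −1.71 ± 0.35 in knockout mice (edgeR).

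*Acaca* (ENSMUSG00000020532, chr11:83943174-84215153, plus strand) makes the malonyl-CoA that is used for synthesis. Its values in control mice were 253, 418, 306, 568 and 279 TPM on LFD and 135, 99.7, 69.3, 69.6 and 103 TPM on HFD. In knockout mice they were 437, 630.2, 407, 336 and 329 TPM on LFD and 87.0, 84.8, 86.4, 229 and 105 TPM on HFD. Neither genotype had a mouse on HFD within the LFD range, although 1 knockout mouse on HFD stood apart at 229 TPM, with the next at 105 TPM. The fall was 2.42 ± 0.33 on the log2 scale in control (adjusted p = 0.00358, edgeR) and 2.17 ± 0.33 in knockout mice (adjusted p = 0.00362, edgeR). With offsets for transcript length, the log2 fold change was smaller, −2.11 ± 0.27 in control and −1.95 ± 0.30 in knockout mice (edgeR).

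*Acacb* (ENSMUSG00000042010, chr5:114596544-114700770, plus strand), whose malonyl-CoA restrains the entry of fatty acids into mitochondria, was low throughout. It ranged from 5.05 to 27.1 TPM in control mice on LFD and from 1.58 to 5.57 TPM on HFD, with the lowest mouse on LFD below the highest on HFD, and fell by 2.41 ± 0.47 on the log2 scale (adjusted p = 0.0157, edgeR). In knockout mice the ranges were 7.01 to 26.99 TPM and 2.19 to 5.89 TPM, without overlap, and the fall was 1.75 ± 0.38 (adjusted p = 0.0222, edgeR). This gene is also expressed in muscle and brown fat, and of all members it varied most closely with the brown and beige markers, as described further on.

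*Fasn* (ENSMUSG00000025153, chr11:120667254-120685492, minus strand), the synthase itself, had values of 628, 989, 540.4, 859 and 680 TPM in control mice on LFD and of 392, 220.2, 151, 125 and 248 TPM on HFD. In knockout mice they were 998, 1769, 1220, 610.1 and 693 TPM on LFD and 148, 138, 146, 357 and 399 TPM on HFD. All mice on HFD lay below all mice on LFD in both genotypes, and 2 of the 5 knockout mice on HFD stood well above the other 3. The gene fell by 1.86 ± 0.40 on the log2 scale in control (adjusted p = 0.0236, edgeR) and by 2.32 ± 0.45 in knockout mice (adjusted p = 0.0128, edgeR).

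*Elovl6* (ENSMUSG00000041220, chr3:129235304-129341413, plus strand) showed the largest fall of the 10 in control mice. In knockout mice it and *Fasn* fell by amounts that differed by less than their standard errors, and limma on log2(TPM + 1) put *Fasn* marginally lower (−2.21 against −2.20). In control mice it was at 112, 248, 212, 460 and 129 TPM on LFD and at 48.2, 38.0, 24.6, 24.7 and 50.8 TPM on HFD. In knockout mice it was at 245, 489, 215, 194 and 104 TPM on LFD and at 35.2, 44.1, 32.7, 56.2 and 80.5 TPM on HFD. The lowest mouse on LFD was above the highest on HFD in each genotype. The gene fell by 2.84 ± 0.41 on the log2 scale in control mice, or 7.17-fold (adjusted p = 0.00464, edgeR), and by 2.41 ± 0.32 in knockout mice, or 5.30-fold (adjusted p = 0.00252, edgeR). In control mice 229 of the 15311 genes tested had a lower log2 fold change than *Elovl6*.

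*Me1* (ENSMUSG00000032418, chr9:86474970-86589947, minus strand) moved least among the enzymes that fell. Its range in control mice was 348 to 690.1 TPM on LFD and 219 to 408 TPM on HFD, with overlap, and the fall was 0.89 ± 0.25 on the log2 scale (adjusted p = 0.0676, edgeR). The call was lost without any 1 of 5 control mice, replicates 2 and 3 on LFD and 12, 13 and 14 on HFD, with adjusted p values up to 0.145. In knockout mice the ranges of 338 to 869 TPM and 164 to 324 TPM did not overlap, and the fall was 1.21 ± 0.24 (adjusted p = 0.0152, edgeR), which held without each mouse in turn.

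**Figure D2:**
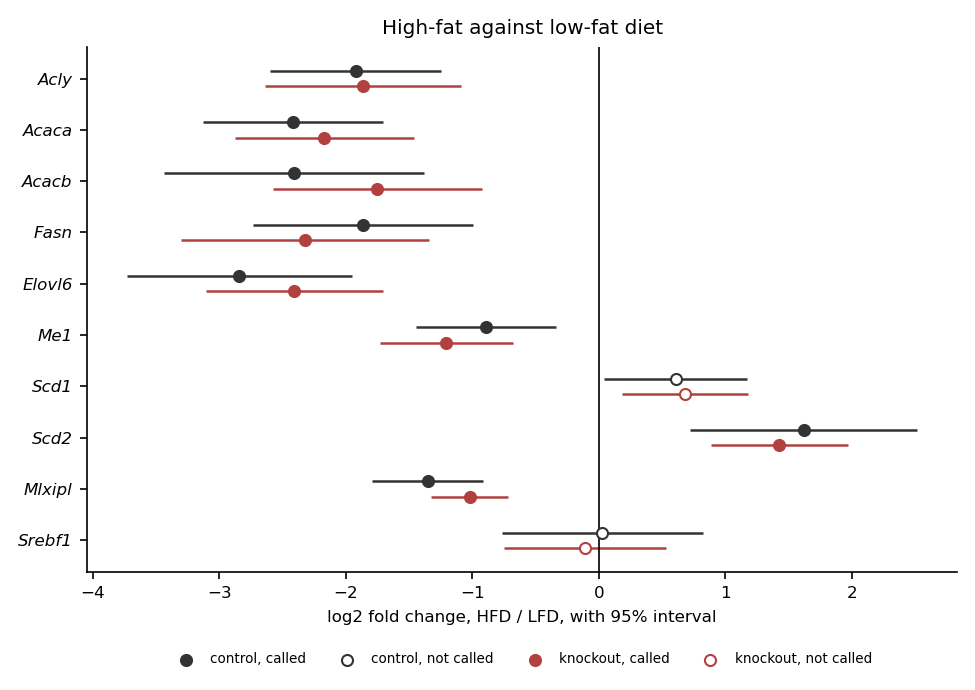
Log2 fold change of each lipogenic gene on HFD over LFD in control and knockout mice (edgeR), with bars for the 95% interval, filled dots for genes called at an adjusted p under 0.1 and open dots for the others. The 7 genes from *Acly* to *Me1* and *Mlxipl* lie left of 0, *Scd2* lies right of it, and the intervals of *Srebf1* span 0.

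The desaturases went the other way from the enzymes that feed them. *Scd1* (ENSMUSG00000037071, chr19:44468941-44482199, minus strand), the main desaturase of fat and liver, was at 15347, 15099, 12267, 14021 and 17071 TPM in control mice on LFD and at 30627, 23941, 26509, 20354 and 22859 TPM on HFD. In knockout mice it was at 13792, 17744, 14927, 10547 and 13121 TPM on LFD and at 23519, 20650, 20418, 23874 and 26516 TPM on HFD. No mouse on HFD lay within the LFD range of its genotype. Even so, the edgeR test did not call it within either genotype, with a log2 fold change of 0.61 ± 0.26 in control (adjusted p = 0.207) and 0.68 ± 0.23 in knockout mice (adjusted p = 0.111). Over both genotypes together it rose by 0.65 ± 0.15 (adjusted p = 0.00361, edgeR). DESeq2 called it in control (adjusted p = 5.48e-06) and in knockout mice (adjusted p = 4.11e-07), and so did limma on log2(TPM + 1) (adjusted p = 0.0421 and 0.0709).

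*Scd2* (ENSMUSG00000025203, chr19:44368166-44381354, plus strand), its neighbour on chromosome 19, was far less abundant. Control mice had 145, 118, 48.1, 39.3 and 44.2 TPM on LFD and 448, 286, 196, 149.5 and 296 TPM on HFD. Knockout mice had 99.9, 130.03, 102, 72.3 and 61.8 TPM on LFD and 149, 268, 178, 313 and 402 TPM on HFD. The groups did not overlap in either genotype, and in control mice on LFD the values split into 2 mice over 100 TPM and 3 mice under 50 TPM. The gene rose by 1.62 ± 0.41 on the log2 scale in control (adjusted p = 0.0453, edgeR) and by 1.43 ± 0.25 in knockout mice (adjusted p = 0.00732, edgeR). Without replicate 3 on LFD the control value was 1.51, with an adjusted p of 0.105. As a share of *Scd1*, *Scd2* stood at 0.532% in control mice on LFD and 1.08% on HFD.

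Because *Fasn* fell while *Scd1* did not, the ratio of *Scd1* to *Fasn* within a mouse parted the diets completely. It ran from 15.3 to 25.1 in control mice on LFD and from 78.2 to 175 on HFD. In knockout mice it ran from 10.03 to 18.9 on LFD and from 66.5 to 159 on HFD. The 9 members other than *Scd1* summed to 2209 ± 640 TPM in control mice on LFD and 1087 ± 347 TPM on HFD (SD, n = 5), and to 2759 ± 1141 TPM and 1078 ± 389 TPM in knockout mice.

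Of the regulators, *Mlxipl* fell and *Srebf1* did not pass the test. *Mlxipl* (ENSMUSG00000005373, chr5:135582761-135614254, plus strand), which codes for ChREBP, had values of 9.20, 14.6, 10.2, 16.5 and 15.0 TPM in control mice on LFD and 6.82, 6.39, 5.69, 2.95 and 5.60 TPM on HFD. Knockout mice had 15.8, 15.8, 16.01, 12.4 and 8.97 TPM on LFD and 6.74, 7.33, 5.79, 7.13 and 9.28 TPM on HFD. The control groups did not overlap, and in knockout mice the lowest on LFD lay just under the highest on HFD. The fall was 1.35 ± 0.20 on the log2 scale in control (adjusted p = 0.00528, edgeR) and 1.02 ± 0.14 in knockout mice (adjusted p = 0.00261, edgeR), and each mouse could be left out without losing the call.

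*Srebf1* (ENSMUSG00000020538, chr11:60012591-60036083, minus strand), which codes for the SREBP-1 proteins, was at 29.6, 39.6, 39.4, 54.8 and 41.1 TPM in control mice on LFD and at 70.7, 52.2, 49.5, 42.6 and 40.4 TPM on HFD. Knockout mice had 40.3, 55.9, 52.7, 20.3 and 40.0 TPM on LFD and 34.8, 33.5, 34.8, 62.3 and 57.0 TPM on HFD. The diets overlapped in both genotypes. The log2 fold change was 0.03 with a 95% interval from −0.77 to 0.82 in control mice (adjusted p = 0.978, edgeR) and −0.11 with an interval from −0.75 to 0.53 in knockout mice (adjusted p = 0.899, edgeR). A change of 2-fold either way was thus outside these intervals, but smaller changes that lie within them could have gone unseen.

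With both genotypes fitted together, 9 of the 10 members passed the test for diet, 7 lower (12.7% of 15574 genes) and 2 higher (12.5%). *Acaca* fell by 2.29 ± 0.24 (adjusted p = 2.24e-06, edgeR) and *Elovl6* by 2.63 ± 0.28 on the log2 scale (adjusted p = 2.34e-06). *Srebf1* was the member that was not called, at −0.04 ± 0.25.

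The sum over a gene hides its transcripts, and those that made up at least 10% of a member's TPM with a mean of at least 1 TPM were compared by an exact permutation test of 5 mice against 5. This gave 18 transcripts and, over 4 comparisons and for both level and share of the gene, 144 tests. The smallest p that 252 assignments allow is 0.00794, and after adjustment over all 144 tests no value was under 0.05. Before adjustment 31 were under 0.05, and the lowest adjusted p, shared by all tests at the smallest p, was 0.0544. These tests, and those at an exact permutation p of 0.0159 (adjusted p = 0.0914), were under the limit of 0.1 used to call genes. Levels had a p under 0.05 for 12 transcripts between diets in control and 14 in knockout mice, and for 0 between genotypes on either diet. The share of all transcripts in the data at such a p was not counted. Of all genes tested, 9.78% in control and 7.95% in knockout mice did not overlap between diets.

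*Acaca* is read from several starts. Its transcripts *Acaca-001* (ENSMUST00000103201, start at chr11 position 83986624) and *Acaca-201* (ENSMUST00000020843, start at 84008940) are both long, with 56 and 54 exons, and differ at their first exons. *Acaca-001* made up 15.3, 15.5, 17.6, 19.96 and 13.5% of the gene's TPM in control mice on LFD and 10.05, 6.77, 4.48, 7.83 and 1.83% on HFD. In knockout mice the share was 16.7, 22.6, 17.7, 15.3 and 13.4% on LFD and 9.36, 0.0447, 4.54, 10.97 and 7.98% on HFD. Its share did not overlap between diets in either genotype (exact permutation p = 0.00794 in each, adjusted p = 0.0544). The share of *Acaca-201* was 37.2% ± 3.8 on LFD and 38.2% ± 7.6 on HFD in control mice (exact permutation p = 0.794). In knockout mice it was 33.5% ± 5.1 on LFD and 30.3% ± 17.3 on HFD (exact permutation p = 0.849). Replicate 18, the knockout mouse on HFD with *Acaca-001* at 0.0447%, also had only 1.09% of *Acaca-201*. Another long transcript, *Acaca-202*, reached 33.2 TPM in the knockout group on HFD. Salmon shares such reads among overlapping transcripts by estimate, so these shares are less certain than the gene sum.

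In *Srebf1* the forms start at different first exons. SREBP-1a starts upstream, at chr11 position 60034106 in this annotation, and SREBP-1c near 60023967, where *Srebf1-007* starts. The 2 transcripts of the 1c form summed to 11.6 ± 8.2 TPM in control mice on LFD and 11.9 ± 7.6 TPM on HFD, and the 2 of the 1a form to 0.785 ± 0.448 TPM and 1.64 ± 1.94 TPM (SD, n = 5). Neither form differed between diets by more than the mice did (exact permutation p = 0.929 and 0.556 in control, 0.683 and 0.524 in knockout mice).

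Most of the *Srebf1* TPM came from transcripts without an annotated protein, and protein-coding ones held between 27.5% and 34.9% of it. Among those without an annotated protein was the short *Srebf1-009* (ENSMUST00000147967, 5 exons, starting near the 1c start at 60023894). It had 9.96, 8.79, 7.98, 7.88 and 7.08 TPM in control mice on LFD and 16.9, 13.6, 15.3, 15.7 and 10.96 TPM on HFD. Knockout mice had 4.16, 5.15, 7.87, 0 and 9.28 TPM on LFD and 9.68, 16.1, 10.9, 21.2 and 17.2 TPM on HFD. Its values were higher on HFD without overlap in both genotypes, while the gene as a whole overlapped (exact permutation p = 0.00794 in each, adjusted p = 0.0544). The full-length 1c transcript *Srebf1-201* (ENSMUST00000064158) overlapped in both genotypes (exact permutation p = 0.905 and 0.532).

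**Figure D3:**
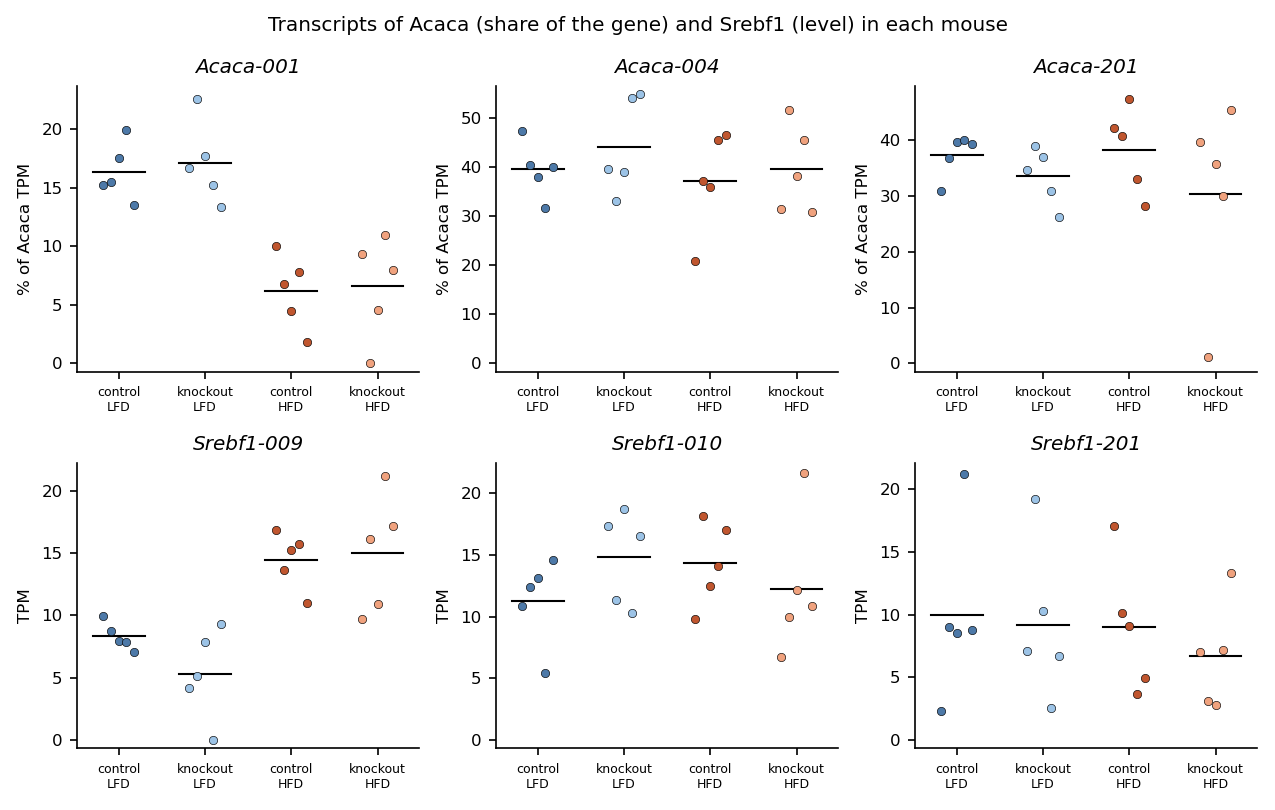
Share of the TPM of *Acaca* taken by 3 of its transcripts (upper row) and TPM of 3 *Srebf1* transcripts (lower row), with 1 dot for each mouse and a bar at the group mean of 5 mice. *Acaca-001* and *Srebf1-009* show no overlap between diets within a genotype, and the other 4 transcripts overlap.

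For *Mlxipl* 9 of the deposited transcripts were matched to the annotation used here (GENCODE vM1, from an earlier Ensembl release than the one the authors name), and 0 of them start within 1000 bases of the upstream RefSeq start, which lies 17001 bases before the downstream one. ChREBP-beta was therefore not counted apart from the rest here, and transcripts left unmatched were not assigned to any gene. The fullest transcript by TPM, *Mlxipl-201*, had a mean of 5.25 TPM in control mice on LFD and 2.79 TPM on HFD. A second full-length transcript, *Mlxipl-001*, was listed at 0 in all 5 knockout mice on HFD, in 4 of 5 control mice on HFD, and in 1 of 5 mice in each LFD group. At these low levels the estimate can move whole between transcripts of the same gene.

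The protein-coding *Fasn-001* held 47.4% of the *Fasn* sum over all libraries, and most of the rest was in 2 short retained-intron transcripts. On that transcript alone the difference between diets was −1.81 in control and −2.31 in knockout mice, on the log2(TPM + 1) scale (exact permutation p = 0.0159 and 0.00794), close to that of the sum. Unlike the sum, *Fasn-001* overlapped between diets in control mice, where the highest on HFD had 244 TPM and the lowest on LFD 210 TPM. In knockout mice it did not overlap. No retained-intron transcript differed in its share between diets at a p under 0.05.

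On each diet the genotypes were compared to ask whether loss of *Tmem120a* in adipocytes changed the programme. On LFD 0 of the 10 members passed the test (0.00636% of 15717 genes did, which was 1 gene), and on HFD 0 of 10 (0.00657% of 15228 genes, again 1 gene). By unadjusted p 0 of the 10 were under 0.05 on either diet, against 803 and 709 of all genes, and DESeq2 and limma called 0 members as well, the lowest adjusted p over all tools and genotype comparisons being 0.575. On LFD 5 members were lower and 5 higher in the knockout, with log2 fold changes between −0.19 and 0.39. On HFD the split was again 5 and 5, between −0.34 and 0.54. The groups overlapped for all 10 members on both diets (1.4% of all genes did not overlap on LFD and 0.69% on HFD).

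The intervals say how large a difference could have gone unseen. For *Scd1* the 95% interval of the knockout over control ran from −0.72 to 0.34 on LFD and from −0.58 to 0.35 on HFD, on the log2 scale. For *Fasn* it ran from −0.45 to 1.22 on LFD and from −1.02 to 0.85 on HFD, so a change of 2-fold was not outside it. *Mlxipl* on HFD came closest to the threshold, with a mean of 5.49 ± 1.51 TPM for controls against 7.25 ± 1.28 TPM for the knockout (SD, n = 5), a log2 fold change of 0.36 and an interval from −0.01 to 0.74 (adjusted p = 0.999, edgeR). *Acacb* on HFD had the highest log2 fold change in this fit, 0.54, with an interval from −0.19 to 1.27 (adjusted p = 0.999, edgeR). With offsets for transcript length it was 0.28, below *Mlxipl* at 0.39 and *Elovl6* at 0.38 (edgeR).

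**Figure D4:**
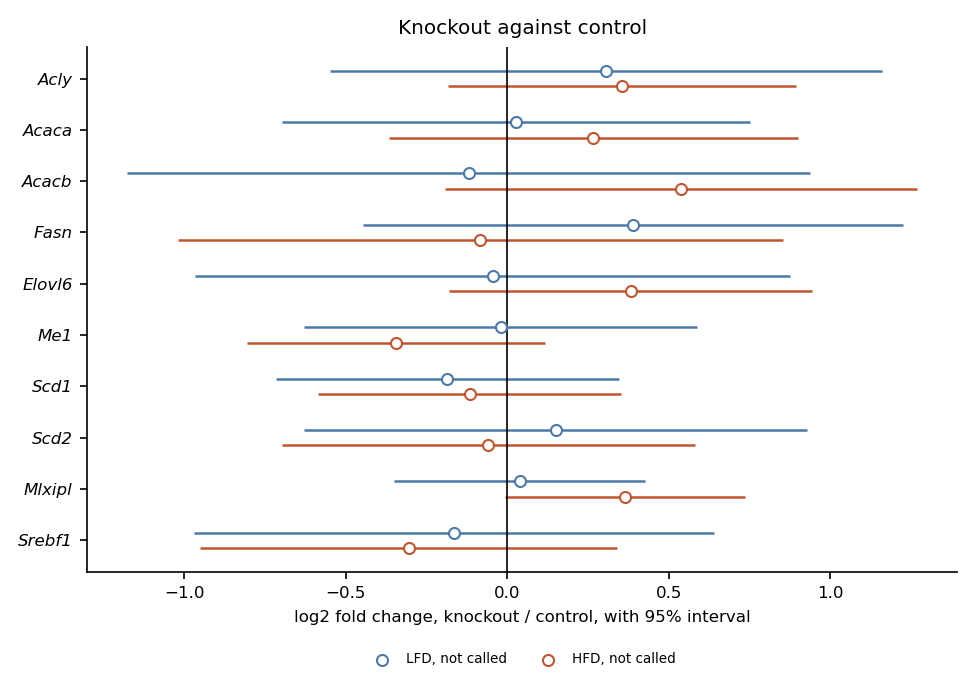
Log2 fold change of each lipogenic gene in knockout over control mice on LFD and on HFD (edgeR), with bars for the 95% interval and open dots for genes not called. All 20 intervals include 0.

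Fitted over both diets, 0 of the 10 members passed the test for genotype (0.0385% of 15574 genes, which was 6 genes). The intervals were narrower there, from −0.46 to 0.15 for *Scd1*, from −0.07 to 0.46 for *Mlxipl* and from −0.76 to 0.28 for *Srebf1*. The question whether the knockout changed the response to diet was put to an interaction term, and 0 of 10 members passed it (0% of 15574 genes, edgeR). At an unadjusted p under 0.05 there were 560 genes and 0 members, and DESeq2 called 14 genes, none of them a member. In this fit the interaction of *Acacb* was the highest, 0.64 with an interval from −0.68 to 1.96. That of *Fasn* was the lowest, −0.49 with an interval from −1.79 to 0.81. These intervals are wide, and a difference of 2-fold between the diet effects of the 2 genotypes was outside them for *Scd1* and *Mlxipl* only. With offsets for transcript length, the interaction of *Acacb* was 0.36, below those of *Elovl6* at 0.42 and *Mlxipl* at 0.41 (edgeR).

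The genes around the members were looked at in 4 lists. For comparison, 4.9% of all genes tested were called lower and 4.42% higher on HFD in control mice. In knockout mice these shares were 4.85% and 4.55%. Of 14 genes that supply carbon and NADPH, 1 fell on HFD in control mice and 2 in knockout mice, and 0 rose, with a list median of −0.22 and −0.10. *Tkt*, transketolase of the pentose phosphate pathway, fell from 286 ± 136 TPM to 96.7 ± 37.2 TPM in control mice (log2 fold change −1.78 ± 0.33, adjusted p = 0.0120, edgeR) and by 1.70 ± 0.40 in knockout mice (adjusted p = 0.0302). *Me3*, the mitochondrial malic enzyme that uses NADP, fell by 0.73 ± 0.23 in knockout mice (adjusted p = 0.0943).

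Of 19 genes for elongation and desaturation outside the members, 16 were abundant enough to test, and 1 fell and 2 rose in control mice, while 0 fell and 2 rose in knockout mice. The list medians were −0.03 and 0.19. *Degs1*, which makes ceramide from dihydroceramide, rose in both (0.78 ± 0.14, adjusted p = 0.00917 in control and 0.75 ± 0.17, adjusted p = 0.0297 in knockout mice, edgeR). *Fads3*, of the fatty acid desaturase cluster, rose by 1.06 ± 0.21 in control mice (adjusted p = 0.0171) and *Ptpla*, a dehydratase of the elongation cycle, by 0.67 ± 0.17 in knockout mice (adjusted p = 0.0382). *Elovl3*, an elongase of brown fat and skin glands, fell by 3.72 ± 1.12 in control mice (adjusted p = 0.0814) from 3.95 ± 3.18 TPM to 0.366 ± 0.392 TPM.

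The 27 partners and other regulators of SREBP and ChREBP had 3 genes lower and 0 higher on HFD in control mice, and 2 lower and 2 higher in knockout mice, with medians of −0.02 and 0.06. *Thrsp*, the lipogenic protein Spot 14, fell from 284 ± 182 TPM to 47.7 ± 34.6 TPM in control mice (−2.82 ± 0.54, adjusted p = 0.0143, edgeR) and from 302 ± 207 TPM to 69.3 ± 38.2 TPM in knockout mice (−2.19 ± 0.48, adjusted p = 0.0225). *Mlxip*, the paralogue of ChREBP, fell by 0.60 ± 0.11 in control (adjusted p = 0.0116) and by 0.95 ± 0.14 in knockout mice (adjusted p = 0.00304). *Prkaa2*, a catalytic subunit of the kinase AMPK, fell by 0.83 ± 0.22 in control mice (adjusted p = 0.0493). *Mid1ip1*, a relative of *Thrsp* that acts on acetyl-CoA carboxylase, rose by 0.67 ± 0.18 in knockout mice (adjusted p = 0.0551).

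*Insig1*, which holds SREBP in the endoplasmic reticulum and is itself a target of SREBP, stood at 146 ± 36.4 TPM on LFD and 472 ± 139 TPM on HFD in knockout mice, a rise of 1.57 ± 0.23 on the log2 scale (adjusted p = 0.00352, edgeR). In control mice it had 145 ± 51.5 TPM and 329 ± 126 TPM, a log2 fold change of 0.95 ± 0.33 that was not called (adjusted p = 0.121). The interaction was 0.59 ± 0.42 (adjusted p = 0.9999), so that the response was not shown to differ between genotypes.

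Among 21 genes for glucose entry and glycolysis 19 were tested, and 2 fell and 1 rose in control mice, 1 fell and 1 rose in knockout mice, with medians of −0.38 and −0.16. *Pdha1*, a subunit of pyruvate dehydrogenase, fell by 0.95 ± 0.18 in control (adjusted p = 0.0138, edgeR) and by 0.54 ± 0.15 in knockout mice (adjusted p = 0.0627). *Pdhb*, another subunit of that complex, fell by 1.12 ± 0.23 in control mice (adjusted p = 0.0217), and *Pfkp*, a phosphofructokinase, rose by 0.52 ± 0.11 (adjusted p = 0.0228) and 0.52 ± 0.12 (adjusted p = 0.0286) in the 2 genotypes. No gene of the 4 lists was called between genotypes or in the interaction.

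**Figure D5:**
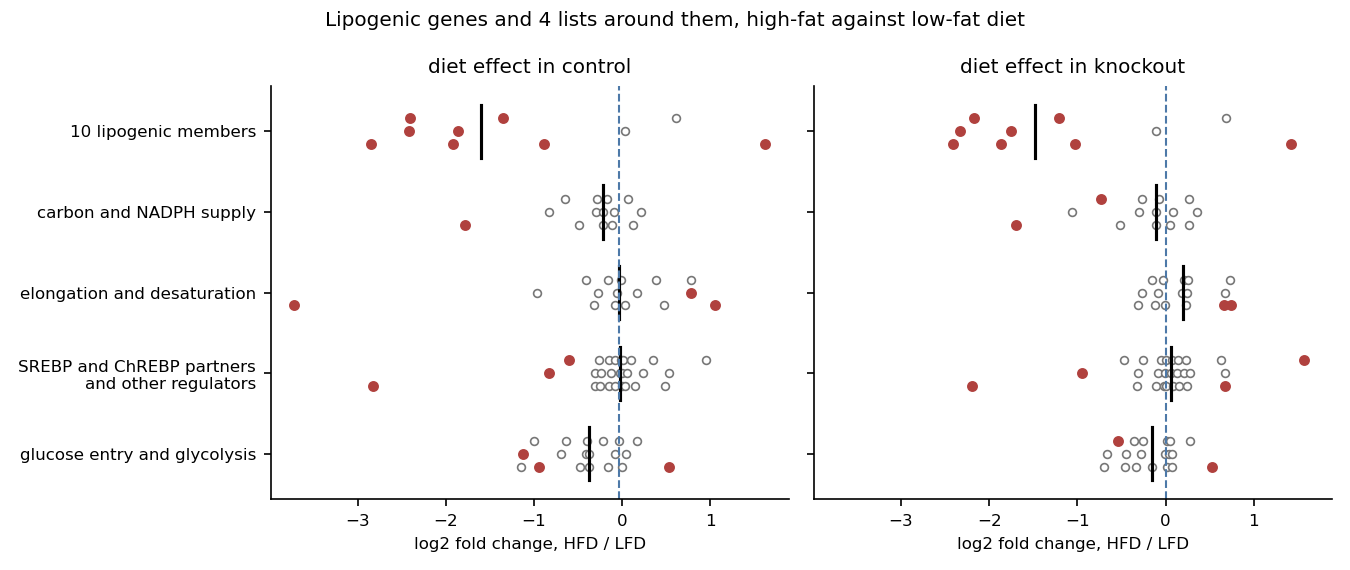
Log2 fold change on HFD over LFD (edgeR) of the 10 lipogenic members and of the tested genes of 4 lists around them, in control mice (left) and knockout mice (right), with filled red dots for called genes, open dots for the others, a black bar at the median of each row and a dashed line at the median of all genes tested. The median of the members is −1.61 and −1.48, and those of the lists lie between −0.38 and 0.19.

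Of the 45 pairs of members 44 had a Pearson's r above 0 within groups, from 0.26 for *Scd2* with *Srebf1* to 0.90 for *Elovl6* with *Me1*, and *Acacb* with *Scd2* had r = −0.13. Over the 10 pairs of *Fasn*, *Acaca*, *Acacb*, *Acly* and *Elovl6*, r of log2(TPM + 1) lay between 0.83 and 0.95 over the 20 libraries, and between 0.49 and 0.88 once each group's mean was taken out. These are descriptions without a test, since the genes share libraries and their scaling. *Scd1* had r = −0.62 with *Fasn* over the 20 libraries, where diet parts them, and 0.73 within groups. *Srebf1* had r = 0.12 with *Fasn* over the 20 libraries and 0.79 within groups, and *Mlxipl* had 0.89 and 0.68.

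The same mice led for several enzymes. Replicate 7, a knockout mouse on LFD, had the highest value of its group for all 5 of these enzymes. Replicate 4 among control mice on LFD and replicate 11 among those on HFD had the mean rank 1.2 for them, where 1 is the highest of the group. Among knockout mice on HFD replicates 20 and 21 led, with mean ranks of 1.6 and 1.8. Replicates 4, 7 and 11 also had the highest white adipocyte and the highest brown and beige marker sums of their groups. Among knockout mice on HFD, replicate 21 had the highest white adipocyte sum, 29908 TPM, and replicate 20 the lowest, 20229 TPM. The part of cell composition in these ranks was not tested.

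Of 13966 other genes averaging 1 TPM or more, those most like the mean log2(TPM + 1) of the members over the 20 libraries included *Parm1*, *Tkt*, *Thrsp*, *Pygl*, *Sorl1*, *Aebp1*, *Pdhb*, *Pth1r* and *Gbe1*, with r between 0.86 and 0.94. With group means taken out, r was between 0.67 and 0.88. *Parm1* headed them with r = 0.94 and stood at 17.7 ± 3.7 TPM in control mice on LFD and 7.79 ± 2.23 TPM on HFD (SD, n = 5). *Pygl* and *Gbe1* code for glycogen phosphorylase and the glycogen branching enzyme, and *Pygl* stood at 93.0 ± 22.0 TPM and 47.7 ± 14.1 TPM in the same groups. These 9 were called lower on HFD in control mice, as all of them but *Pdhb* were in knockout mice, which follows in part from how they were chosen.

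Other cell types moved with diet in control mice. Over all genes tested, 4.9% were called lower and 4.42% higher on HFD in these mice, and 4.85% and 4.55% in knockout mice. Of 10 markers of skeletal muscle fibres 8 fell on HFD, the summed level lying between 7.22 and 3052 TPM on LFD and between 6.88 and 48.3 TPM on HFD. Of 8 brown and beige markers 4 fell, the sum lying between 104 and 766 TPM on LFD and between 63.2 and 244 TPM on HFD. In knockout mice 0 of 10 muscle markers and 0 of 8 brown and beige markers were called, with sums of 12.4 to 899 TPM against 39.8 to 1354 TPM and of 62.4 to 501 TPM against 97.2 to 783 TPM, and the same 8 members were called there. Without replicate 5, the control mouse on LFD with a fibre sum of 3052 TPM, 8 members were called in control mice. The part of muscle and brown fat RNA in the diet differences of the members was not tested. No muscle or brown marker was at 0 in a whole group.

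Within groups, r of a member with the brown and beige sum was highest for *Acacb*, at 0.85, and lay between −0.28 and 0.51 for the other 9 members. Their part in the level of *Acacb* was not tested. Of 10 white adipocyte markers 1 rose and 0 fell on HFD in each genotype. Their sums were 17081 to 23591 TPM on LFD and 21560 to 31802 TPM on HFD in control mice. In knockout mice they were 15126 to 20747 TPM and 20229 to 29908 TPM. *Scd1* had r = 0.78 with this sum over all libraries. Within groups its r was 0.48, the highest of the members, and the other 9 lay between −0.06 and 0.37. The part of adipocyte content in the level of *Scd1* was not tested. Macrophage markers rose for 3 of 7 in control and 0 of 7 in knockout mice, and endothelial ones for 1 of 4 and 0 of 4. Of 5 fat progenitor markers, 2 fell and 0 rose in control mice, and 1 fell and 1 rose in knockout mice. Epithelial markers fell for 2 of 11 tested and 0 of 11, and lymphocyte markers for 0 of 8 and 1 of 8. In the sebaceous gland, which makes lipid too, 5 of 6 markers were under the 0.5 TPM needed for a test in both comparisons, with a sum of at most 8.49 TPM in any library, and the one tested was *Elovl3*, described above.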

How the data were processed

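Total RNA of inguinal white fat from 20 mice was sequenced after ribosomal RNA depletion (TruSeq Stranded Total RNA). The authors quantified Ensembl NCBIM37 transcripts with Salmon 0.13.1 after alignment with STAR 2.5.3 to mm9, and deposited an estimated count for each transcript and library, not normalized. They also deposited TPM, normalized for transcript length and library total. Of 96533 transcripts, 94334 matched GENCODE vM1, an annotation from an earlier Ensembl release than the authors used, and were summed to 36611 genes. The unmatched ones held between 0.377% and 0.581% of the counts. The members and lists were chosen with earlier results of these data known.

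Estimated counts were rounded and tested with edgeR 4.0.16 (quasi-likelihood, TMM, R 4.3.3) after leaving out genes that averaged under 0.5 TPM in the libraries of a comparison. A gene was called at a Benjamini-Hochberg adjusted p under 0.1 over all genes tested, the limit the methods give. Each diet and genotype comparison used its own 10 libraries, and the interaction and the effects over both genotypes or diets used all 20. Fold changes are HFD over LFD or knockout over control. Transcripts were compared with two-sided exact permutation tests on log2(TPM + 1) and on the share of the gene (SciPy 1.17.1). The model fits had a self-test, and the permutation test was checked on small sets of values with known answers. The p-values measure the spread between these mice, and no label gives a batch.

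Named genes were the 10 members, *Tmem120a*, tested transcripts, list genes called in a comparison (at most 4 each by size of change) and the 10 genes most like the members, of which 1 is not reported here. Alternatives were DESeq2 1.42.0 and edgeR with and without length offsets, limma 3.58.1 on log2(TPM + 1), DESeq2 size factors, no filter, an adjusted p under 0.05, 1 fit of all libraries, a pseudocount of 0.1 for transcripts, and leaving out each mouse. Permutation tests of the members' sums, over all or protein-coding transcripts, were added after seeing the data.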

Additional observations from a re-analysis of the deposited data

Results flagged for a closer look

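*Acaca* in knockout mice on HFD had 1 mouse far from the others, replicate 20 at 229 TPM, where the nearest of the other 4 stood at 105 TPM and the lowest at 84.8 TPM. The gap was 0.862 of the range of the group, above the limit of 0.71 for 5 samples. It was the single value of this kind among 40 groups of values tested, 10 genes in 4 groups, and chance gives such a value in about 1 of 20 groups. The same mouse ranked high in its group for the other lipogenic enzymes, with 357 TPM of *Fasn* and 152 TPM of *Acly*. Without it *Acaca* was still called lower on HFD in knockout mice.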

How the results depend on the processing

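The call of 7 members as lower on HFD was kept in both genotypes by every other tool, normalization and filter tried, except that *Me1* in control mice (adjusted p = 0.0676) is not under 0.05. *Scd1* was called in both genotypes by DESeq2, also with length offsets (adjusted p = 0.000196 and 4.25e-05), and by limma, and in knockout mice in the fit of all 20 libraries (adjusted p = 0.0591). No member was called for genotype or interaction under any alternative. Of 1610 refits of member values, 93 changed sign, and 0 of these concerned a value that had been called. The cause was not tested in any case.

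Genes called on HFD over LFD numbered 2205 in control and 2247 in knockout mice by DESeq2, and 728 and 865 at an adjusted p under 0.05. For genotype on HFD there were 100 by DESeq2, 105 with length offsets, 5 by edgeR with offsets, 3 by limma and by the fit of all libraries, and 26 without a filter. On LFD there were 17 by DESeq2, with or without offsets, and 2 by limma and by the fit of all libraries. Over both diets there were 32, 47 with offsets, and 2 by edgeR with offsets. The interaction had 14 by DESeq2 and 16 with offsets.

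Leaving out 1 mouse gave 780 to 1845 genes for diet in control mice (lowest without replicate 12 on HFD, highest without replicate 1 on LFD), 753 to 1355 in knockout mice (lowest without replicate 6), 1 to 58 for genotype on HFD (58 without replicate 21, 10 without replicate 12, 2 without replicate 15) and 1 to 2 on LFD (2 without replicate 1). Members called for diet numbered 6 to 8 in control and 8 in knockout mice. Transcripts with a genotype p under 0.05 numbered 0 to 1 on HFD and 0 to 3 on LFD.

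Signs that turned, all uncalled, were as follows on the log2 scale. *Srebf1* for diet was 0.11 in knockout mice by limma and the permutation test, and over both genotypes 0.049 and 0.052 with offsets and 0.21 by limma. *Fasn* for genotype on HFD was 0.038 and 0.033 with offsets and 0.013 by limma and permutation. On LFD *Mlxipl* was −0.023 and −0.024 with offsets, and by limma and permutation *Acacb* was 0.11 (0.085 over coding transcripts), *Elovl6* 0.11 and *Me1* 0.084. In the interaction *Acly* was −0.0039 and −0.0095 with offsets and −0.033 by limma, which also gave −0.016 for *Acaca* and −0.020 for *Scd1*.

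With 1 mouse left out, *Srebf1* for diet ran from −0.30 to 0.40 in control mice, −0.27 to 0.14 in knockout mice and −0.19 to 0.12 over both. For genotype on HFD, *Fasn* ran from −0.38 to 0.36, *Scd2* −0.21 to 0.15, *Acaca* −0.086 to 0.48 and *Srebf1* −0.45 to 0.017. On LFD, *Acacb* ran from −0.52 to 0.39, *Elovl6* −0.35 to 0.38, *Me1* −0.25 to 0.21, *Mlxipl* −0.057 to 0.17, *Acaca* −0.20 to 0.36, *Acly* −0.077 to 0.55, *Scd2* −0.0086 to 0.52 and *Srebf1* −0.42 to 0.21. Over both diets, *Acaca* ran from −0.026 to 0.30, *Scd2* −0.042 to 0.20 and *Fasn* −0.013 to 0.38. In the interaction, *Acaca* ran from −0.12 to 0.44, *Acly* −0.21 to 0.40, *Srebf1* −0.53 to 0.16, *Scd1* −0.022 to 0.11 and *Elovl6* −0.017 to 0.70. With 5 mice a group, genotype differences that lie within the intervals given could have gone unseen, and power was not calculated.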

Other observations

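The protein-coding share of *Acly*, not compared by a test, was 97.3% of its TPM in control and 93.8% in knockout mice on LFD, and 80.6% and 78.8% on HFD. Over protein-coding transcripts alone *Acly* had a mean of 225 ± 91.95 TPM in control mice on LFD and 65.8 ± 22.1 TPM on HFD (SD, n = 5).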
